A study of Mus musculus with 26 samples.

Results

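The proteasome is the protease complex that removes ubiquitin-tagged proteins, and its subunit genes were followed here in dorsal root ganglia of mice, which hold the cell bodies of sensory neurons, after sciatic nerve crush, after sham surgery and in culture. Members were all genes whose symbol consists of Psm, 1 letter from a to g and a number, with an optional last letter, in both deposited count tables after Ensembl identifiers were matched to symbols. There were 49 such genes among 55401 in the tables, once 4 pseudogenes had been left out. They comprise 7 alpha-ring, 4 structural beta, 3 constitutive catalytic and 3 immune catalytic subunits, 2 tissue-restricted subunits, 6 ATPases and 11 non-ATPase subunits of the base and lid, 3 and 4 assembly chaperones of the base and the core, 5 activator genes and 1 inhibitor.

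The study asked what the aryl hydrocarbon receptor (Ahr), a ligand-activated transcription factor, does in sensory neurons after axon injury. Control mice carried floxed Ahr without Cre (Ahr fl/+ or fl/fl, also written f/+), and conditional knockout (cKO) mice were Ahr f/f Thy1-CRE(ERT2/EYFP), in which the Thy1 promoter, active mainly in neurons, drives a tamoxifen-dependent Cre, so other cells of a ganglion keep the gene. Mice of the naive and injured groups, both genotypes, were 28 weeks old when tamoxifen was given on 5 days at 100 mg/kg, and ganglia L4 to L6 of 1 mouse made 1 library 5 weeks later, without surgery or 1 day after nerve crush (3 mice in each of 4 groups). By label all naive mice were female, as were all injured mice except injured control 3 and injured cKO 3. A supplemental table holds ipsilateral and contralateral ganglia 1 day after sham surgery (2 male mice per genotype, each giving both sides) and semi-purified neurons 24 h after seeding (3 libraries per genotype, all female, controls Ahr fl/fl). For the sham and neuron mice the labels state neither tamoxifen nor age. All tissue was collected at ZT2 to ZT4 (hours after lights on).

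In a proteasome, the core particle is a barrel of outer alpha rings and inner beta rings, and 3 of the beta subunits (Psmb5, Psmb6 and Psmb7) cut proteins. Interferon signalling leads cells to build in Psmb8, Psmb9 and Psmb10 in their place, which gives the immunoproteasome, known for supplying peptides to MHC class I. The regulatory particle has an ATPase ring that unfolds substrates and a lid that binds and removes ubiquitin. Neurons depend on proteasomal turnover for protein quality control and axon maintenance.

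The 26 libraries held 20169388 to 23540375 counts in naive and injured ganglia, 39306414 to 58751270 in sham ganglia and 25299938 to 88180611 in neurons. Members took 0.281% to 0.322% of the counts in naive and injured ganglia, against 0.549% to 0.605% in sham ganglia and 0.602% to 0.640% in neurons. Ahr itself was not lower in the cKO: it stood at 18.9 to 23.8 CPM (counts scaled by library size) in naive controls and 22.7 to 28.1 CPM in naive cKO, so its gene count does not check the labels. Thy1 was 707 to 807 CPM in naive controls and 1252 to 1416 CPM in naive cKO. Of the 26 libraries, 2 went against their labelled sex by Xist and Y-linked transcripts, injured control 3 (female by transcripts) and injured cKO 2 (male by transcripts), and injury results are given with and without them. By transcripts 2 of 3 injured cKO libraries were thus male and all 3 naive cKO libraries female, so crush and sex are partly confounded in the cKO. All 6 neuron markers listed were detected in every library, with a summed level of 5677 to 6866 CPM in naive and injured ganglia and 2941 to 3453 CPM in the cultured neurons.

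Of the 49 members, 48 passed the low-count filter in naive and injured ganglia, and Psmb11, a thymus-specific catalytic subunit, did not (0.0431 to 0.411 CPM). Psma8, a testis-specific alpha subunit, was at 0.321 to 0.813 CPM. The other 47 members had a median of at least 1 CPM over these 12 libraries, and the highest library stood 1.09 to 2.09 times above the lowest, with a median of 1.24 and a median coefficient of variation of 6.43%. By the ratio of highest to lowest, Psmd7, a lid subunit, moved least (124 to 136 CPM) and Psmb8 most (6.97 to 14.6 CPM). By the coefficient of variation Psmb9 moved most, at 21.3% against 19.2% for Psmb8.

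Levels of different genes are compared per kilobase of exon. In naive controls Psmb5 was highest at 110.7 ± 2.52 CPM per kilobase (SD, n = 3), followed by the ATPase Psmc5 at 74.5 ± 5.85 and the lid subunit Psmd7 at 56.9 ± 2.73. Psmc1 (52.6 ± 3.03), Psma6 (52.1 ± 4.18) and Psmb2 (50.2 ± 3.33) came next and did not differ beyond their spread. Assembly chaperones were low, with medians of 10.8 CPM per kilobase for the base and 7.39 for the core. The immune catalytic subunits Psmb8 (2.93 ± 0.470) and Psmb9 (1.94 ± 0.531) were 45th and 46th of 49 in that order.

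Nerve crush was followed by small rises of a few members, of which Psmd11, Psme4 and Psmf1 were called in both genotypes. In control ganglia 5 of 48 tested members were called higher and none lower by edgeR's quasi-likelihood test (adjusted p under 0.05 over all 21261 genes tested), where 21.6% of all genes were called, 12.9% higher and 8.73% lower. In cKO ganglia 7 of 48 were called higher and none lower, where 18.6% of all genes were called, 10.7% higher and 7.89% lower. The members' share of calls (10.4% and 14.6%) was thus below that of all genes in each genotype. With sex by transcripts as a covariate 1 member was called in the cKO, where 6.65% of all genes were. Without the 2 libraries that went against their labelled sex 1 member was called in each genotype, Psmd11, where 18.5% of all genes were called in controls and 11.1% in the cKO.

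**Figure D1:**
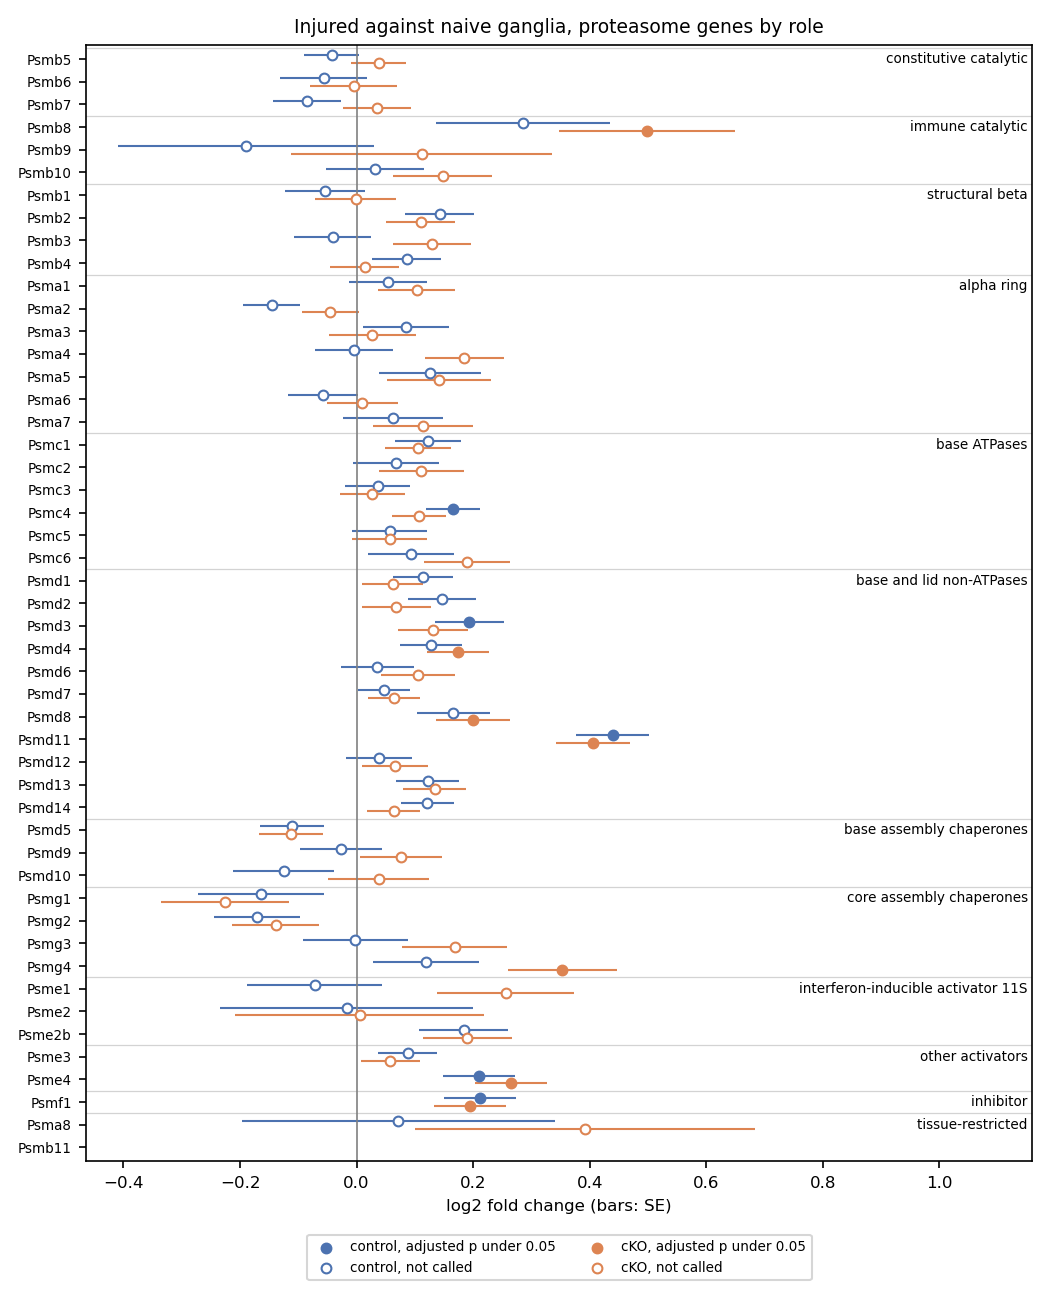
Log2 fold changes of injured against naive ganglia (x axis; bars are SE) for the 49 members ordered by role (y axis), with filled points for an adjusted p under 0.05. All base and lid points lie right of 0 in both genotypes, and Psmd11 lies furthest right in controls at 0.44, while in the cKO Psmb8 at 0.50 lies beyond Psmd11 at 0.41; Psmb11 has no point because it was not tested.

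Psmd11, a lid subunit that holds lid and base together, had the smallest adjusted p of the members in both genotypes. It was at 60.1, 68.2 and 63.8 CPM in naive controls and 85.9, 88.2 and 86.5 CPM in injured controls. In the cKO it was at 62.9, 65.1 and 64.2 CPM before and 77.3, 86.8 and 90.5 CPM after crush. Every injured library was above every naive library. The rise was 1.36-fold in controls (log2 0.44 ± 0.06 SE, adjusted p = 0.000454) and 1.32-fold in the cKO (log2 0.41 ± 0.06, adjusted p = 0.000887) by edgeR, and it was called in all 15 alternative analyses of each genotype. With sex by transcripts as a covariate the cKO value was 0.27 (adjusted p = 0.0480). Without the 2 libraries against their labelled sex it was 0.44 in controls and 0.38 in the cKO (adjusted p = 0.00379 and 0.0114, edgeR).

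Psmd11 has copies that can take its reads, the transcript A730017L22Rik (97.9% identical over 1501 bases) and the pseudogene Gm14048 (98.0% over 1269 bases). Summed with them it was at 83.1, 95.7 and 87.2 CPM in naive and 117.7, 120.1 and 114.9 CPM in injured controls, and at 88.8, 89.4 and 90.1 CPM and 106.1, 120.4 and 120.9 CPM in the cKO. The summed groups did not overlap either.

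Psme4, the large single-chain activator that caps the core in place of the regulatory particle, was at 76.2, 82.2 and 77.9 CPM in naive controls and 87.3, 93.7 and 92.5 CPM after crush. Naive cKO libraries had 84.2, 73.1 and 83.0 CPM and injured ones 98.9, 98.4 and 91.4 CPM. The groups did not overlap in either genotype, and the log2 rise was 0.21 ± 0.06 in controls and 0.26 ± 0.06 in the cKO (adjusted p = 0.0310 and 0.0107, edgeR). Psmf1, an inhibitor that binds the core, was at 83.4, 91.2 and 85.3 CPM in naive and 100.1, 98.9 and 101.9 CPM in injured controls, again without overlap. In the cKO it was at 89.5, 83.6 and 90.8 CPM before and 91.8, 104.7 and 105.6 CPM after, with the lowest injured library only just above the highest naive one. Its log2 rise was 0.21 ± 0.06 and 0.19 ± 0.06 (adjusted p = 0.0290 and 0.0460, edgeR). Without the 2 libraries against their labelled sex Psme4 had log2 values of 0.20 and 0.24 (adjusted p = 0.116 and 0.0776, edgeR). Psmf1 had 0.19 and 0.16 (adjusted p = 0.101 and 0.216, edgeR). These were close in size to the values above but not called. The fit had 1 library fewer in each injured group, and the part of library number or sex in the lost calls was not tested. With sex by transcripts as a covariate the cKO value was 0.30 for Psme4 (adjusted p = 0.0652) and 0.06 for Psmf1 (adjusted p = 0.698).

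Psmd11, Psme4 and Psmf1 were the members called in both genotypes, 60.0% of the control calls and 42.9% of the cKO calls. Over all genes, 1894 higher calls were shared, 69.0% of the control and 82.9% of the cKO calls. The control calls also included the ATPase Psmc4 (log2 0.17, adjusted p = 0.0228) and the lid subunit Psmd3 (log2 0.19, adjusted p = 0.0372). The cKO calls also included the ubiquitin receptor Psmd4 (log2 0.17, adjusted p = 0.0390), the lid subunit Psmd8 (log2 0.20, adjusted p = 0.0456) and the assembly chaperone Psmg4 (log2 0.35, adjusted p = 0.0201), all by edgeR. Psmg4 was at 4.32 to 4.58 CPM in naive and 5.38 to 6.21 CPM in injured cKO ganglia. In naive controls it was already at 5.24 to 6.07 CPM, above every naive cKO library. The seventh cKO call was Psmb8, described below.

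**Figure D2:**
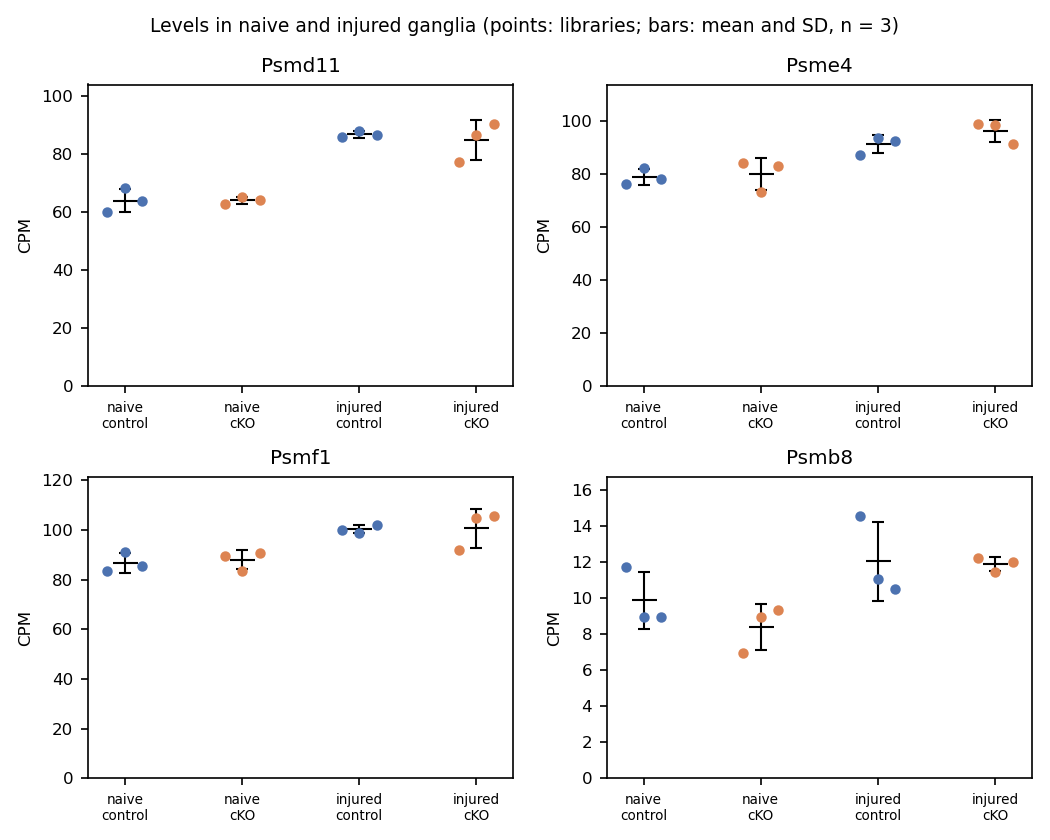
CPM (y axis, from 0) of Psmd11, Psme4, Psmf1 and Psmb8 in the naive and injured groups (x axis); points are libraries and bars are mean and SD, n = 3. Psmd11 lies at 60.1 to 68.2 CPM in the naive and 77.3 to 90.5 CPM in the injured libraries, while Psmb8 overlaps between naive and injured controls.

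By role, all 6 ATPases and all 11 base and lid non-ATPase subunits had a positive log2 value after crush in both genotypes, with medians of 0.08 and 0.12 in controls and 0.11 and 0.11 in the cKO. The median over all genes tested was -0.02 in controls and -0.0046 in the cKO, and 10028 and 10462 of 21261 genes were positive. The alpha ring had 4 of 7 members positive in controls (median 0.05) and 6 of 7 in the cKO (median 0.10), with no call in either. The core chaperone Psmg1 had log2 values of -0.16 and -0.23 and Psmg2 of -0.17 and -0.14, none of them called. The constitutive catalytic subunits stayed between -0.08 and 0.04 in both genotypes, with no call.

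When 1 library was left out, fewer of all genes were called in each fit and fewer members in most. The log2 values moved less. With 1 library left out Psme4 was at 0.18 to 0.24 in controls and 0.19 to 0.29 in the cKO, and Psmf1 at 0.18 to 0.24 and 0.15 to 0.24. In controls 1 member was called without naive control 3, without injured control 2 or without injured control 3, and 3 without injured control 1. In the cKO 2 members were called without naive cKO 1, naive cKO 3 or injured cKO 2, 3 without injured cKO 3 and 4 without naive cKO 2. In each genotype the highest count came from a fit not listed here. It was above the count with all libraries in controls and equal to it in the cKO. With 1 library left out, 14.4% to 18.9% of all genes were called in controls and 12.3% to 17.4% in the cKO. Scaling by edgeR's RLE factors gave 4 higher and 1 lower in controls and DESeq2 gave 5 higher and 1 lower, the lower one being the alpha subunit Psma2 (log2 -0.15 with each), where 21.4% and 19.5% of all genes were called.

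Some cell type markers were called after crush, where 21.6% of all genes were called in controls and 18.6% in the cKO. The markers called in controls were 2 higher and 1 lower of 4 satellite glia markers, 1 lower of 4 endothelial markers, and 1 higher and 1 lower of 4 T cell markers. In the cKO they were 1 higher satellite glia marker, 1 higher T cell marker and 1 lower of 6 neuron markers. The T cell list summed to only 1.86 to 2.74 CPM in naive and 1.96 to 2.33 CPM in injured controls. The satellite glia list summed to 1770 to 1854 CPM in naive and 1950 to 2084 CPM in injured controls, without overlap, and to 1765 to 2012 and 1963 to 2204 CPM in the cKO, with overlap. The macrophage list (6 genes) summed to 117 to 182 CPM in naive and 95.9 to 145 CPM in injured controls, and to 102 to 158 and 81.6 to 114 CPM in the cKO. None of its 6 genes was called in either genotype. In bulk tissue, fewer cells of a type and less RNA per cell cannot be told apart, and the part of these lists in the results was not tested.

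For the members called in both genotypes, upstream sequence free of annotated exons was at hand for Psmd11 (chr11:80428615-80473248, plus strand, GRCm38) and Psmf1 (chr2:151715812-151744186, minus strand). Shown are the 250 bases before the RefSeq start (GRCm38.p6), 5′ to 3′ on the gene's strand, Psmd11 from chr11:80428365-80428614 and Psmf1 from chr2:151741311-151741560, which lies in an intron of a longer Psmf1 transcript. Capitals mark every match to the motifs searched, an ETS factor site in Psmd11 (bases -11 to -5 from the start) and a xenobiotic response element core, the letters bound by Ahr, in Psmf1 (bases -32 to -28).
Psmd11: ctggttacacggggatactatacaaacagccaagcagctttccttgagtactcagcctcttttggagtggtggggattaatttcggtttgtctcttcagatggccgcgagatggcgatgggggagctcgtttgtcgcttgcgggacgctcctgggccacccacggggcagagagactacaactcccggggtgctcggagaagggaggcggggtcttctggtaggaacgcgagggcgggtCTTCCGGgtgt
Psmf1: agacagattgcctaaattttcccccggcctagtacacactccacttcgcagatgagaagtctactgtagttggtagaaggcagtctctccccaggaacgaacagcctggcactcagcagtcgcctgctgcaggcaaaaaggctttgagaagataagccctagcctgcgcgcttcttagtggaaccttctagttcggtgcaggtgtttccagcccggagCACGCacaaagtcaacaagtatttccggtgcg
In all, 41 of 49 members had 44 windows of 300 bases around a RefSeq start, and 9 motifs were searched on both strands: TGACNNNGC (antioxidant response element), GAAA and GAAA with 2 bases between them (interferon-stimulated response element core), TTCNNNGAA (STAT), GCGTG (xenobiotic response element core), CCGGAAG (ETS), CACGTG (E-box), TGACGTCA (cyclic AMP response element), CCAAT, and GCGC and GCGC with 2 bases between them (NRF1 site). The ETS letters were in 34.1% of the members' windows against 8.86% of all 32851 windows, and the xenobiotic core in 52.3% against 32.4%. The interferon letters were in 11.4% against 3.44%, the NRF1 letters in 15.9% against 6.23% and the E-box in 9.09% against 7.15%. Members with the interferon letters were Psmb3, Psmd4, Psmd9, Psme1 and Psmg4, and not Psmb8, Psmb9 or Psmb10. The antioxidant letters (13.6% against 12.4%), the STAT letters (6.82% against 8.30%) and CCAAT (31.8% against 37.4%) were near the share of all windows, and no member window held the cyclic AMP element (1.79% of all). These shares describe letters in a window and were not tested.

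The immune catalytic subunits were low against their constitutive partners in every ganglion. Per kilobase of exon, Psmb8 stood at 2.40% to 3.07% of Psmb5 in naive controls and Psmb9 at 3.77% to 5.50% of Psmb6. Psmb10 was nearer to its partner, at 37.4% to 38.6% of Psmb7. The immune share of the summed level of all 6 was 5.95% ± 0.378 (SD, n = 3) in naive controls, 5.80% ± 0.549 in naive cKO, 6.43% ± 0.758 in injured controls and 6.69% ± 0.0896 in injured cKO. These 4 ranges overlapped except for naive cKO (5.18% to 6.22%) against injured cKO (6.61% to 6.78%), and naive control (5.62% to 6.36%) against injured cKO.

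Psmb8 rose after crush in the cKO, from 6.97, 8.93 and 9.37 CPM to 12.3, 11.5 and 11.99 CPM, with every injured library above every naive one (1.41-fold, log2 0.50 ± 0.15, adjusted p = 0.0382, edgeR). The call was lost in 9 of 15 alternative analyses, including all 6 that leave out 1 library, where the log2 value was 0.37 to 0.57 (highest adjusted p = 0.154, edgeR). In controls it was at 11.7, 8.99 and 8.97 CPM before and 14.6, 11.1 and 10.5 CPM after, the groups overlapped, and the log2 value of 0.29 was not called. The difference between the genotypes in the injury effect was 0.21 ± 0.21 on the log2 scale (adjusted p = 1.00, edgeR). Psmb9 (log2 -0.19 and 0.11) and Psmb10 (0.03 and 0.15) were not called in either genotype. Some counts are uncertain because exons of another gene overlap, and the strand setting is not given. In this table the antisense Gm20496, with 498 shared exon bases, had 87.0% of the counts of Psmb8, and Tap1, with 212, had 197% of those of Psmb9. Nek6, with 405 shared exon bases, had 126% of the counts of Psmb7, and Gm26938, with 280 on the same strand, 86.1% of those of Psmg3. Emc9 shares 14 exon bases with Psme1 and had 453% of its counts. Gm16156 over Psmb10, Gm12185 over Psme2b and 3110056K07Rik over Psma3 share 0 exon bases with the member.

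**Figure D3:**
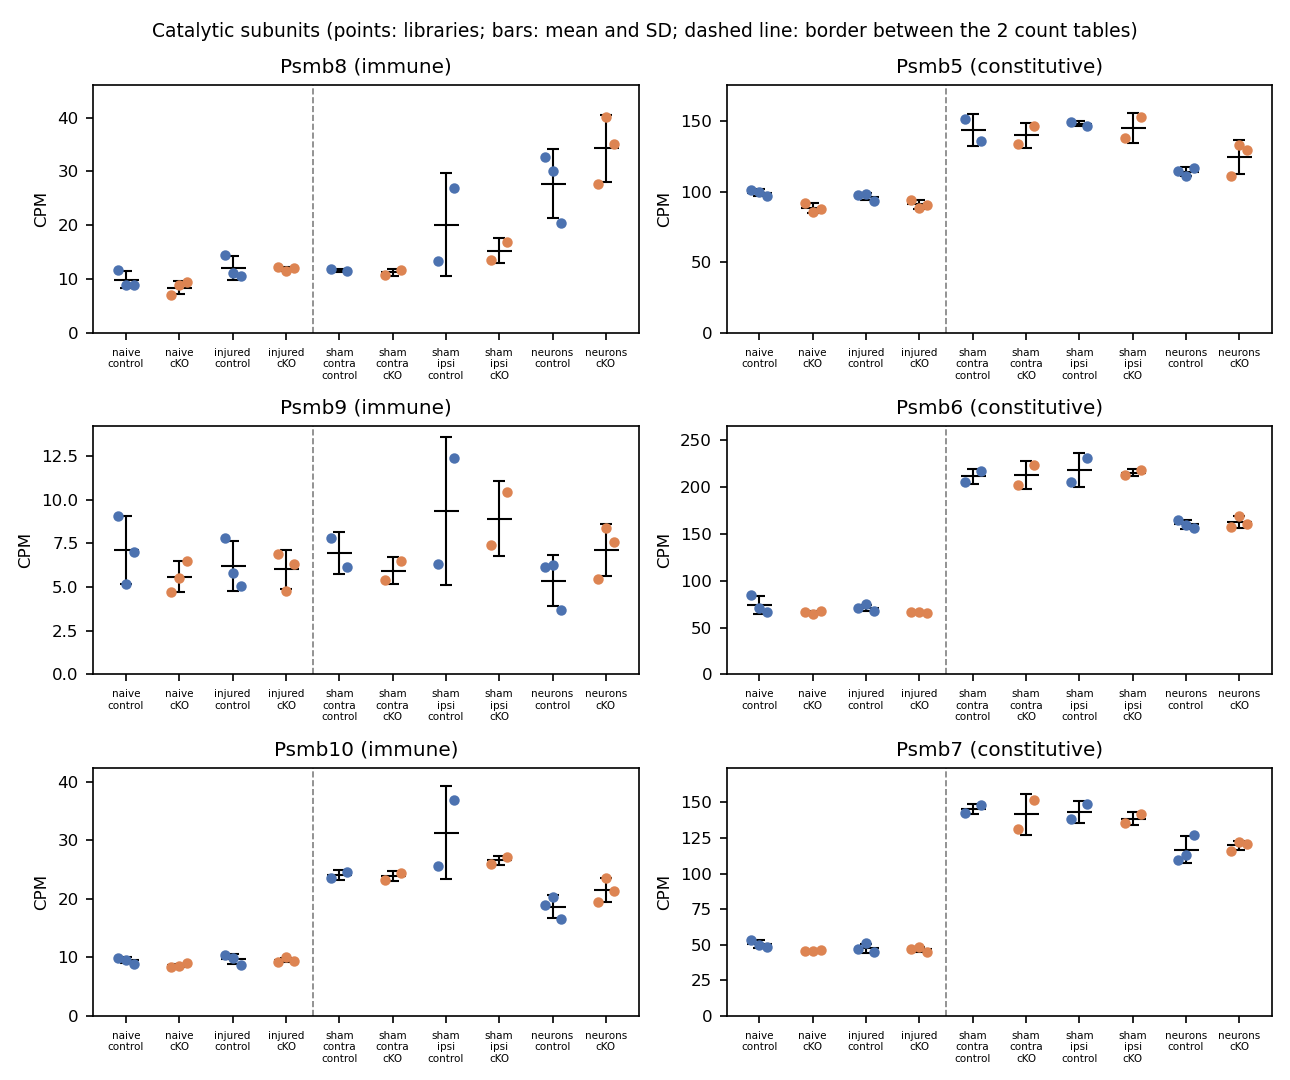
CPM (y axis, from 0) of the immune (left) and constitutive (right) catalytic subunits in the 10 groups (x axis); points are libraries, bars are mean and SD (n = 2 or 3), and a dashed line separates the 2 count tables, which were normalised separately. Psmb8 is highest in the neurons, at 20.4 to 40.1 CPM, and one ipsilateral sham control library stands high in Psmb8, Psmb9 and Psmb10.

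No member was called between cKO and control libraries in any of the groups. By edgeR, 0 of 48 members were called in naive and in injured ganglia (0.00941% of all genes called in each, 0.0047% higher and 0.0047% lower), 0 of 48 for the difference in the injury effect (0% of all genes), 0 of 49 in neurons (0% of all genes), and 0 of 48 on the ipsilateral (0.00451% of all genes) and contralateral (0% of all genes) sham sides. At an unadjusted p under 0.05 there were 6, 0, 0, 1, 0 and 0 members in that order, where 5.79%, 2.72%, 2.95%, 7.997%, 7.59% and 5.23% of all genes lay under it. DESeq2 called 0 members in each, and 0.0141%, 0.00941%, 0%, 0.640%, 0.686% and 0.131% of all genes. The 6 in naive ganglia were all lower in the cKO, and 38 of 48 members had a negative value there (median log2 -0.06, against 0.00037 over all genes). The median leaned on naive control 1, in which members took 0.322% of the counts against 0.294% and 0.284% in the other naive controls. Without it 32 of 48 values were negative, the median was -0.02 and 3 members lay under an unadjusted p of 0.05, against 2.57% of all genes. Without naive control 3 there were 43 negative values, a median of -0.10 and 14 such members, against 5.87% of all genes. Negative values numbered 33 without naive control 2 and 34 without naive cKO 2, each with a median of -0.07.

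Among these, Psmb5 was at 101.7, 99.8 and 97.2 CPM in naive controls and 92.5, 85.7 and 88.3 CPM in naive cKO, without overlap (log2 -0.16 ± 0.05, adjusted p = 0.754, edgeR). Psmb7 was at 53.2, 50.0 and 48.1 CPM in controls and 45.7, 45.4 and 46.0 CPM in the cKO, also without overlap (log2 -0.14 ± 0.06, adjusted p = 0.754, edgeR). After crush the groups overlapped for both genes. Psme1, a subunit of the interferon-inducible activator ring, was at 9.59 to 11.01 CPM in naive controls and 7.71 to 8.84 CPM in naive cKO (log2 -0.33 ± 0.12, adjusted p = 0.754, edgeR). The other 3 were Psma4 (log2 -0.16), Psmb3 (-0.21) and Psmg4 (-0.34). In neurons Psmb8 was at 32.8, 30.0 and 20.4 CPM in controls and 27.7, 40.1 and 35.0 CPM in the cKO, and the groups overlapped (log2 0.29 ± 0.19, adjusted p = 0.687, edgeR).

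Sham surgery without crush gave no member called between the sides (0 of 48 by edgeR, where 0.00451% of all genes were called, and 0 of 48 by DESeq2, where 0.903% were). At an unadjusted p under 0.05 there were 3 of 48, near the 7.56% of all genes. The 3 were Psmb8, Psmb10 and Psme2b. Psmb8 was at 11.9 and 11.5 CPM contralaterally and 13.3 and 26.8 CPM ipsilaterally in control mice 1 and 2, and at 10.8 and 11.7 CPM against 13.6 and 16.9 CPM in cKO mice 1 and 2, so the ipsilateral side was higher in all 4 mice. Control mouse 2 stood apart, with a 2.34-fold difference between its sides for Psmb8, 2.02-fold for Psmb9 and 1.499-fold for Psmb10. The log2 value for Psmb8 was 0.62 ± 0.20 (adjusted p = 0.544, edgeR) and 0.30 ± 0.12 without both sides of that mouse (adjusted p = 0.966). Without a filter on low counts, Psmb8 was the 1 member called (adjusted p = 0.0128, edgeR), in a setting that called 381 of 35021 genes (1.09%). In the same ipsilateral library Tap1, the peptide transporter of class I presentation, was at 26.6 CPM against 13.0 CPM in the other ipsilateral control and the class I transactivator Nlrc5 at 15.8 against 5.05 CPM. Its macrophage sum was 98.4 CPM, the lowest of the 8 sham libraries, of which Cd74 made up 65.7 CPM. Against the other ipsilateral control, Aif1 of this list was higher (3.42 against 2.09 CPM) and Cd68, Adgre1, Csf1r, Ptprc and Cd74 were lower. The part of macrophages was not tested. The constitutive subunits of that mouse differed between sides by 1.08-fold (Psmb5), 1.06-fold (Psmb6) and 1.01-fold (Psmb7).

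Cultured neurons were compared with contralateral sham ganglia of the same table and genotype, which were the nearest ganglia available. Culture, purification, sex and surgery cannot be told apart in this comparison. Psmb8, all 5 activator genes and several alpha-ring and lid subunits were called higher in the neurons. The 3 constitutive catalytic subunits were called lower in 5 of 6 tests, with the opposite direction against naive ganglia of the other table. Contrasts against naive ganglia, here and below, also hold the difference in level between the tables. In controls 21 of 49 members were called higher and 13 lower, where 67.8% of all 24192 genes tested were called, 35.2% higher and 32.6% lower. In the cKO 20 were called higher and 8 lower, where 64.7% of all genes were called, 33.9% higher and 30.8% lower. The members' share of calls, 69.4% and 57.1%, was thus near that of all genes. Of these calls 17 higher ones were shared (81.0% of the control and 85.0% of the cKO list), and so were 8 lower ones (61.5% and 100%). Over all genes 86.6% and 89.9% of the higher and 83.7% and 88.4% of the lower calls were shared. The genotype difference in this effect was not tested.

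**Figure D4:**
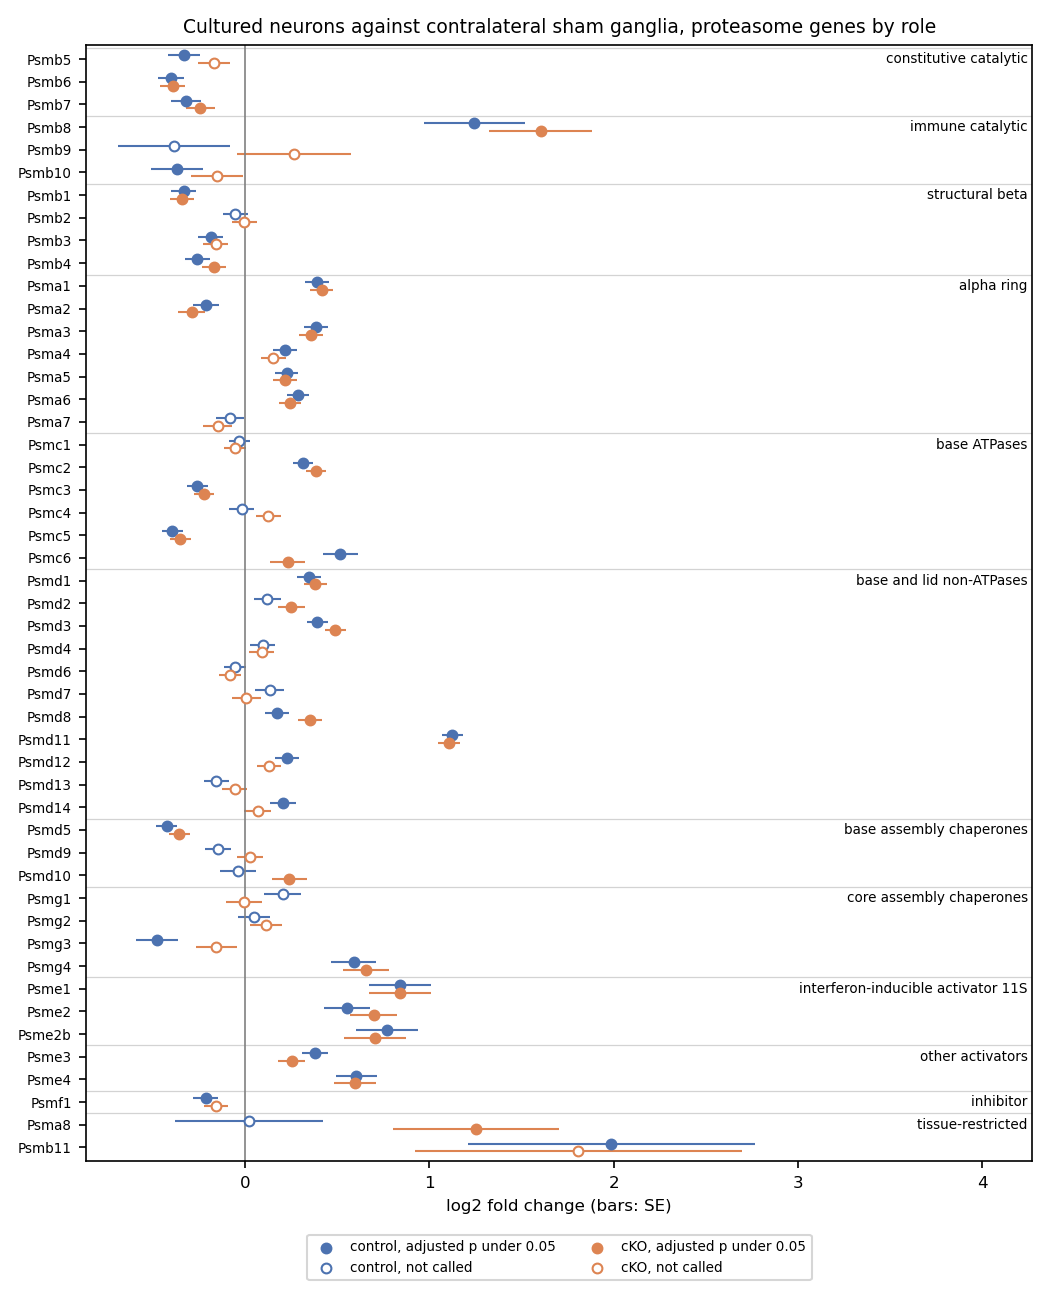
Log2 fold changes of cultured neurons against contralateral sham ganglia (x axis; bars are SE) for the 49 members by role (y axis), with filled points for an adjusted p under 0.05. Psmd11 and Psmb8 lie above 1 in both genotypes and the constitutive catalytic and structural beta subunits lie below 0 in both. Against naive ganglia of the other table, 10 of 13 and 7 of 8 members called lower lie above 0, but levels differed between the tables.

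Psmd11 was again among the most changed, at 220.7, 209.6 and 205.9 CPM in control neurons and 95.0 and 99.4 CPM in contralateral control ganglia. In the cKO it was at 202.5, 216.0 and 213.0 CPM in neurons and 99.1 and 96.1 CPM in ganglia. The groups were far from overlapping, and the difference was 2.18-fold in controls (log2 1.13 ± 0.06, adjusted p = 1.03e-08) and 2.16-fold in the cKO (log2 1.11 ± 0.06, adjusted p = 1.40e-08) by edgeR. Psme4 was at 105.4 to 140.0 CPM in control neurons against 80.2 to 81.1 CPM (log2 0.60), and at 115.0 to 137.5 CPM in cKO neurons against 82.7 to 86.7 CPM (log2 0.60). Psmf1, which rose after crush, was at 73.2 to 83.1 CPM in control neurons against 90.2 to 91.8 CPM in ganglia and was called lower there (log2 -0.21, adjusted p = 0.0136, edgeR). Of the 9 members called after crush in either genotype, 6 were called higher in culture in both genotypes (66.7%), which is 35.3% of the 17 shared culture calls: Psmb8, Psmd11, Psmd3, Psmd8, Psme4 and Psmg4. Over all genes tested in both fits, 1927 of 3095 genes called higher after crush were called higher in culture (62.3%), so the members' share was near that of all genes.

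Among the constitutive catalytic subunits, Psmb6 was at 164.6, 159.3 and 156.0 CPM in control neurons and 205.5 and 216.9 CPM in control ganglia, without overlap (log2 -0.40 ± 0.07, adjusted p = 0.000240, edgeR), and the cKO value was -0.39. Psmb7 was at 109.5 to 127.4 CPM against 142.9 to 148.2 CPM in controls (log2 -0.32), with -0.24 in the cKO, both called. Psmb5 was called lower in controls (log2 -0.33) and had -0.17 in the cKO, which was not called (adjusted p = 0.103, edgeR). The direction of all 3 was the opposite against naive ganglia of the other table, with log2 values of 0.31, 1.22 and 1.32 in controls for Psmb5, Psmb6 and Psmb7. In CPM, contralateral sham controls stood at 1.45, 2.86 and 2.88 times naive controls for these 3 genes. The opposite direction cannot be told apart from this difference between the tables. Of the members called lower, 10 of 13 in controls and 7 of 8 in the cKO had the opposite sign against naive ganglia, the exceptions being Psmd5 in both genotypes and Psmf1 and Psmg3 in controls. Of the members called higher, 1 of 21 and 1 of 20 had the opposite sign, Psme2b in each genotype.

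The immune subunits did not move as a set. Psmb8 was at 32.8, 30.0 and 20.4 CPM in control neurons and 11.9 and 11.5 CPM in control ganglia, a 2.37-fold difference (log2 1.25 ± 0.28, adjusted p = 0.00154), and 3.04-fold higher in the cKO (log2 1.60 ± 0.28, adjusted p = 0.000289) by edgeR. Psmb9 had -0.38 in controls and 0.27 in the cKO, neither of them called. In this table Tap1, which overlaps its exons, had 537% of the counts of Psmb9 and was itself higher in neurons (log2 2.18 and 2.90), and its part in the Psmb9 counts was not tested. Psmb10 was called lower in controls (log2 -0.37, adjusted p = 0.0324, edgeR), not called in 3 of the 12 alternative analyses within the table, and had -0.15 in the cKO. Against naive ganglia it was higher, at 1.08 and 1.42. The immune share of the 6 catalytic subunits was 7.71% ± 1.27 in control neurons and 8.63% ± 0.596 in cKO neurons (n = 3 each), against 5.72% to 5.92% and 5.67% to 5.83% in the contralateral ganglia. Per kilobase, Psmb8 was at 2.16% of Psmb5 in contralateral ganglia and 6.47% in neurons of controls, and at 2.14% and 7.27% in the cKO. Psmb9 was at 1.70% and 1.71% of Psmb6 in controls, with overlap, and at 1.42% (1.36% to 1.49%) and 2.24% (1.78% to 2.53%) in the cKO, without overlap.

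The activators were higher in neurons in both genotypes. Psme1 was at 78.9, 68.4 and 51.8 CPM in control neurons and 36.4 and 37.5 CPM in ganglia, without overlap (log2 0.84 in each genotype, adjusted p = 0.000761 and 0.000839, edgeR). The ring partner of Psme1, Psme2, is given below with its copy. Psme3, which forms the nuclear activator ring, had log2 values of 0.38 and 0.25, both called. In the alpha ring, Psma1 (log2 0.39 and 0.42), Psma3 (0.39 and 0.36), Psma5 (0.23 and 0.22) and Psma6 (0.29 and 0.24) were called higher in both genotypes, and Psma2 lower (-0.21 and -0.29, but 0.83 and 0.90 against naive ganglia). Against sham ganglia the ATPases split, with Psmc2 (0.31 and 0.38) and Psmc6 (0.52 and 0.23) higher and Psmc3 (-0.26 and -0.22) and Psmc5 (-0.39 and -0.35) lower. Against naive ganglia all 4 were higher, with Psmc3 at 1.53 and 1.62 and Psmc5 at 1.07 and 1.17. The base chaperone Psmd5 was lower (-0.42 and -0.36) and the core chaperone Psmg4 higher (0.59 and 0.66). Psmb11 (log2 1.99 in controls, 0.153 to 0.392 CPM in neurons) and Psma8 (log2 1.25 in the cKO) were called in 1 genotype each at levels under 1 CPM.

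Marker levels moved widely in the same comparison, where 67.8% of all genes were called in controls and 64.7% in the cKO. The endothelial list (4 genes) summed to 871 to 1199 CPM in control neurons against 73.9 to 98.0 CPM in contralateral control ganglia, and all 4 of its genes were called higher. All 6 neuron markers were called lower in both genotypes, and the macrophage list summed to 39.3 to 50.2 CPM against 116 to 186 CPM in controls, with 4 of 6 genes lower and 1 higher. The Schwann list summed to 883 to 996 CPM against 3008 to 3928 CPM in controls, with 4 of 5 genes lower and 1 higher. Satellite glia and fibroblast lists each had 2 of 4 genes lower and 1 higher in controls, and the T cell list 3 of 4 lower. Of all markers listed, Cd3g and Cd8a of the T cell list were at 0 in 2 libraries each and the others were above 0 in every library. Their part in the members' changes was not tested.

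Levels could not be carried from 1 table to the other. Over the 47 members with at least 1 CPM, contralateral sham controls stood at a median of 1.81 times naive controls. The ratio was 1.65 for the 32 members without a near-identical copy and 2.45 for the 15 with copies at 90% identity or more, where it ran from 0.206 to 27.6. Both tables name the same processing, and surgery and sex differ between the mice as well, so these cannot be told apart between sham and naive controls. Whether tamoxifen differed is not stated in the labels.

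Psme2, partner of Psme1 in the interferon-inducible ring, shows this at its most extreme. Its copy Psme2b on chromosome 11 has no intron, and over the 717 coding bases the genes differ at 5 positions (99.3% identical), with a longest identical run of 311 bases. In the coding bases 424 to 543, from GENCODE M21 transcripts, capitals mark the 3 positions that differ:
Psme2: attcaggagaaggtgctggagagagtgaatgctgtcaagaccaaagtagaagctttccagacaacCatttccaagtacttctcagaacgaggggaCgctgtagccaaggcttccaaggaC
Psme2b: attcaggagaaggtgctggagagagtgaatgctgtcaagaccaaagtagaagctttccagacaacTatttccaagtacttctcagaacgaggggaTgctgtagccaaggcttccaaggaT
Psme2 took 4.71% to 8.19% of the summed CPM of the pair in the 12 naive and injured libraries and 87.3% to 89.5% in the 14 sham and neuron libraries. No library lay between these ranges. Injured cKO 2 and 3, male by transcripts, were at 5.33% and 6.85%, and the female neuron libraries at 87.3% to 89.2%. The cause of the split was not tested. In naive controls Psme2 was at 1.24 to 1.81 CPM and Psme2b at 24.6 to 28.7 CPM, while contralateral sham controls had 43.9 to 45.1 and 5.14 to 5.602 CPM. The split between the pair is therefore uncertain, and the sum is the safer value. Summed, the pair had log2 values of 0.17 and 0.18 after crush (adjusted p = 0.121 and 0.121, edgeR), and was higher in neurons by 0.58 and 0.70 (adjusted p = 0.00148 and 0.000414, edgeR). Psme2 and Psme2b were each called higher in culture in both genotypes as well.

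**Figure D5:**
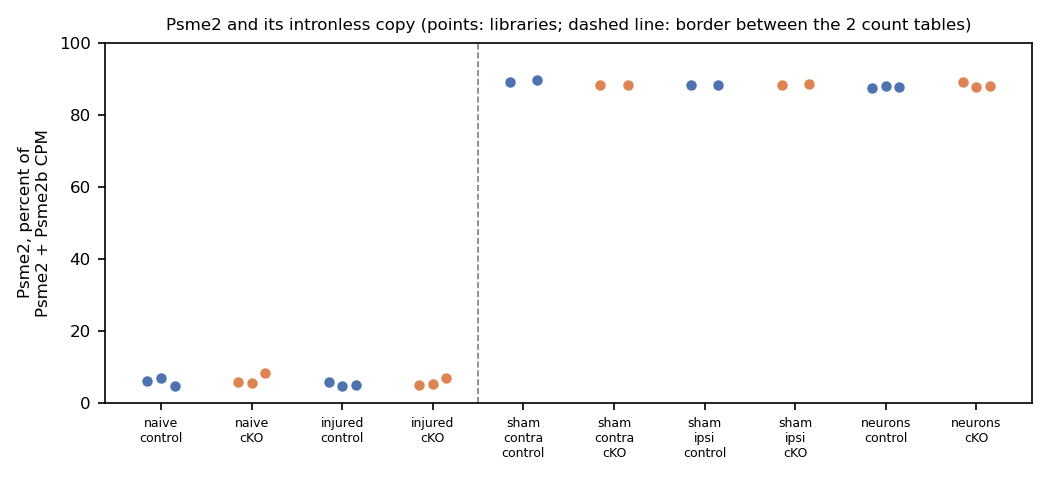
Psme2 as a percentage of the summed CPM of Psme2 and Psme2b (y axis, 0 to 100) in each library (points) of the 10 groups (x axis), with a dashed line between the 2 count tables. The 12 libraries on the left lie at 4.71% to 8.19% and the 14 on the right at 87.3% to 89.5%.

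Genes that work with the proteasome were listed by function. Their counts stand beside 21.6% and 18.6% of all genes called after crush and 67.8% and 64.7% called in neurons, in controls and cKO. Among proteasome-associated genes (9 of 10 tested) Akirin2, which brings proteasomes into the nucleus, was the 1 called after crush (log2 0.39 and 0.25, adjusted p = 0.000164 and 0.00363, edgeR), and it was higher in neurons (0.83 and 0.79). In the neurons 3 of the 9 were called higher and 3 lower in controls, and 2 and 2 in the cKO, with the ubiquitin receptor Adrm1 higher (0.56 and 0.59) and the core maturation factor Pomp lower (-0.40 and -0.41). Of 6 regulators, Nfe2l2, the transcription factor of the antioxidant response, rose after crush (log2 0.40 and 0.31), as did Ngly1, an enzyme that activates Nfe2l1, in controls (0.19). In neurons Nfe2l2 was higher (1.69 and 1.70) and Nfe2l1, the factor known to raise proteasome genes when proteasomes are inhibited, lower (-0.40 and -0.36). The protease Ddi2 (0.75 and 0.71) and the segregase Vcp (0.44 and 0.37) were higher and Ngly1 lower (-0.33 and -0.30), so 3 of 6 were called higher and 2 lower in each genotype.

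Of 11 ubiquitin and shuttle genes, 1 was called after crush in controls, the shuttle factor Rad23b (log2 0.23), and 0 in the cKO. In neurons 7 were called higher and 2 lower in controls, and 6 and 2 in the cKO, with Rad23b higher (0.58 and 0.48). Of 10 class I presentation and interferon genes only Nlrc5 was called after crush, in both genotypes (log2 0.94 and 1.12). In neurons 9 of the 10 were called higher in controls and 10 in the cKO, with a median log2 value of 1.41 and 1.58 against 0.06 and 0.03 over all genes. Irf1 had 2.08 and 2.74, H2-K1 1.92 and 2.12, and B2m 1.46 and 1.33.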

How the data were processed

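RNA from 26 libraries in 10 groups (TruSeq Stranded mRNA, per the labels' protocols) was counted per gene by the authors. The deposited counts are whole numbers per Ensembl gene, and the submitters' processing notes name Trim Galore, HISAT2, featureCounts and mm10, without versions. The annotation and the strand setting are not given in the sources used here. The deposited FPKM divide by the gene span with introns (within 0.1% for 99.3% and 99.4% of genes), and were used for this check only.

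Of 55401 genes, 55141 (99.53%) were matched to GENCODE M21 (GRCm38) on the identifier without its version. The main test was edgeR 4.0.16 in R 4.3.3: filterByExpr (minimum count 10, total 15), TMM, the quasi-likelihood test on group means, two-sided, with Benjamini-Hochberg adjustment over all genes tested and a threshold of 0.05. One model covered the 12 naive and injured libraries, and separate models covered the 6 neuron, the 8 sham and, for culture, the 14 supplemental libraries, so 21261, 23295, 22160 and 24192 genes were tested in 11 comparisons. The SE is the log2 fold change over the root of F. CPM use TMM factors within a table, and levels per kilobase use exon length. DESeq2 1.42.0, other filters and scalings, sex covariates, blocks and left-out libraries were alternatives, 4 of them added after seeing the data. The fit was tested on simulated data.

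Per the labels each library of a group comes from its own mouse, neurons included, and the mouse is the replicate. Replicates differed by more than counting noise (chi-square per degree of freedom 3.32 to 39.9). Replicate numbers did not pair the groups. The 2 sides of a sham mouse share the animal, and their deviations correlated at 0.23 in controls and -0.16 in the cKO. The members and lists were chosen with earlier results of these data known. All members are accounted for. Named were the catalytic and interferon-inducible ring subunits and, in each comparison and direction, at most the 5 largest called changes, with other calls named after their values were seen. The 9 motifs and the sequences shown were also chosen after values were seen. Values of some single genes of the pathway lists are not reported here.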

Additional observations from a re-analysis of the deposited data

Results flagged for a closer look

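Over 490 pairs of settings, 3 members had cKO libraries all on one side of the controls in 1 setting and all on the other side in another. The difference between the settings was not tested in these cases, and each group holds 2 or 3 libraries. Among 48 members tested in every setting these were 3 of 480 pairs (0.625%), against 4123 of 199410 pairs (2.07%) over the 19941 genes tested in every setting. Psmd14 was lower in injured cKO ganglia (log2 -0.06) and higher in contralateral sham cKO ganglia (0.08), a difference of -0.14. Psmd8 was higher in cKO neurons (0.09) and lower in contralateral sham cKO ganglia (-0.06), a difference of 0.15. Psme1 was lower in naive cKO ganglia (-0.33) and higher in contralateral sham cKO ganglia (0.05), a difference of -0.38. None of the single genotype effects was called by edgeR.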

How the results depend on the processing

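The injury counts are small and moved most, and the share of all genes called moved as well. Against 5 calls in controls and 7 in the cKO, 1 and 3 were called without a filter on low counts (11.6% and 10.2% of all genes), 3 and 4 with only the groups compared in the fit (18.0% and 16.8%), and 1 and 1 without the libraries against their labelled sex (18.5% and 11.1%). Labelled sex as a covariate gave 3 in controls (20.2% of all genes), sex by transcripts gave 1 in the cKO (6.65%), and an adjusted p under 0.1 gave 9 in controls (28.6%). Leaving out 1 library at a time gave 1 to 6 in controls and 2 to 7 in the cKO. Fitting with the replicate number as a block gave 5 (4 higher, 1 lower) and 5 after injury (20.6% and 17.4% of all genes) and 34 and 26 in culture (65.9% and 62.8%), with 0 in the genotype comparisons. Same-numbered libraries did not deviate together, with correlations from -0.42 to 0.41. The mouse as a block left 0 members called between sham sides (4 of all genes), and 0 with the cKO numbers crossed (9 of all genes). Between sham sides 1 member was called without a filter on low counts (1.09% of all genes).

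Culture counts were 25 to 26 in the cKO and 26 to 34 in controls with 1 library left out, where 52.8% to 61.0% and 56.1% to 67.8% of all genes were called. Against naive ganglia fitted jointly, 43 members were called in controls (41 higher) and 44 in the cKO (42 higher), where 81.4% and 80.1% of all genes were called, 40.0% and 40.5% higher, and most lower calls changed sign. Among them, Psmb10 in controls was then at 1.08, Psmb5 0.31, Psmb6 1.22, Psmb7 1.32, Psmc5 1.07 and Psme2b -1.40. In the cKO Psma2 was at 0.90, Psmb1 0.66, Psmb10 1.42, Psmb5 0.59, Psmb6 1.39, Psmb7 1.49, Psmc5 1.17 and Psme2b -1.31. The cause was not tested.

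The immune share depends on the length used. Per kilobase of gene span it was 11.6% and 11.3% in naive control and cKO, 12.7% and 13.3% in injured, 9.62% and 9.42% in contralateral sham, 12.5% and 10.9% in ipsilateral sham, and 13.7% and 15.6% in neurons. Per kilobase of the longest coding transcript it was 6.99% and 6.69% in naive, 7.55% and 7.82% in injured and 5.29% and 5.15% in contralateral sham ganglia, and 6.16% in ipsilateral sham cKO. Psma8, Psmb11 and Psme2 in the naive and injured libraries rest on few counts.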
